A study of Mus musculus with 2 samples.

Results

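The mitochondrial genome of the mouse gave 37 of the 55416 genes counted in 2 single-cell libraries, and they were found by the symbol prefix mt-. They comprise 13 messengers, 2 ribosomal RNAs (rRNAs) and 22 transfer RNAs (tRNAs). The libraries were 1 of gastrocnemius muscle, a calf muscle, with 5547 barcodes and 14056163 UMIs (unique molecular identifiers, counted molecules), and 1 of lung, with 8481 barcodes and 34751225 UMIs. Both came from animals labelled TB mice with the genotype entry CAC mouse model. The labels spell out neither short name, give no treatment, age or number of animals, and say that cells were isolated on CD45 magnetic beads after digestion with Liberase TL and DNase I. A barcode stands for a droplet, and all barcodes were used. With 1 library per tissue there was no replicate and no test between tissues, and the intervals in parentheses are exact 95% intervals that cover counting error only.

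Mitochondrial DNA is transcribed from both strands into long precursors, which are cut at the tRNAs that lie between most of the other genes. The messengers encode core subunits of complexes I, III and IV of the respiratory chain and of ATP synthase, and all other subunits come from nuclear genes. Muscle fibres are rich in mitochondria, and the share of mitochondrial UMIs in a barcode is commonly read as a measure of cell quality.

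The labelled selection was checked with Ptprc, the gene of CD45. Ptprc stood at 138 nuclear CPM (UMIs per 1000000 UMIs of nuclear genes) in muscle and 471 in lung, and 6.44% of muscle against 55.6% of lung barcodes held a Ptprc UMI, at medians of 1716 and 2252 UMIs. Barcodes were gated by markers of 11 cell classes: a barcode took the class with the most detected markers if it had at least 2 and no tie. The gate placed 3764 muscle barcodes (67.9%) and 7348 lung barcodes (86.6%), and 395 of the former (10.5%) and 6806 of the latter (92.6%) fell in leukocyte classes. The largest class was endothelial in muscle, with 2426 barcodes of which 0.66% held a Ptprc UMI, and neutrophil in lung, with 3139 barcodes. Most gated muscle barcodes thus fell outside the leukocyte classes, although the labels name CD45 beads. The reason was not tested. The leukocyte classes of muscle are given apart where their numbers allow. The 2 libraries shared 64 barcode sequences, which held 17.6% mitochondrial UMIs in muscle and 2.27% in lung. Without them the mitochondrial share was 18.7% and 2.01%, as with them.

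In both libraries 3 messengers took the highest UMI counts and a further group with near-identical nuclear copies took few, so the starts of both kinds are shown. The library type reads the 5′ end of transcripts. The first 60 bases of the leading messengers, as read from the GENCODE transcripts of build GRCm38, are
mt-Cytb: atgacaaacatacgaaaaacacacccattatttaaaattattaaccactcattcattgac
mt-Co1: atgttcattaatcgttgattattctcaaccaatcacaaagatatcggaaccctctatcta
mt-Atp8: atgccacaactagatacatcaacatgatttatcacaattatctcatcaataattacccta
The last 60 bases of mt-Atp8 are shown because its final 43 bases, in capitals, are also the start of mt-Atp6, so that reads there belong to both genes:
mt-Atp8 end: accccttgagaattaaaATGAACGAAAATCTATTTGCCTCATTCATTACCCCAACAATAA
The messenger mt-Co2 and its annotated copy on chromosome 1, the unprocessed pseudogene Gm28661, have the same first 60 bases, and mt-Nd3 and its copy Gm28438 differ at 1 position, in capitals (T3C, counted from the first base of mt-Nd3):
mt-Co2: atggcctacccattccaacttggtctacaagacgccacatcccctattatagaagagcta
Gm28661: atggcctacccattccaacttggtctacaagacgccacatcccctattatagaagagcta
mt-Nd3: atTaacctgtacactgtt
Gm28438: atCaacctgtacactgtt

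Mitochondrial genes took 18.7% of the UMIs in muscle (2628985 UMIs, 18.68 to 18.72%) and 2.01% in lung (698215 UMIs, 2.005 to 2.014%). The median barcode held 13.7% in muscle and 1.28% in lung, and the highest values were 99.5% and 83.9%. Every muscle barcode held at least 1 mitochondrial UMI, while 95 lung barcodes held none. In muscle the 4 ranges of mitochondrial share were filled about evenly: 1111 barcodes (20.03%) lay at most at 5%, 1135 (20.5%) over 5 to 10%, 1725 (31.1%) over 10 to 30% and 1576 (28.4%) over 30%. In lung 7930 barcodes (93.5%) lay at most at 5%, 278 over 5 to 10%, 203 over 10 to 30% and 70 (0.825%) over 30%. Barcodes over 30% held 69.6% of all mitochondrial UMIs of the muscle library and 5.56% of those of the lung library.

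**Figure D1:**
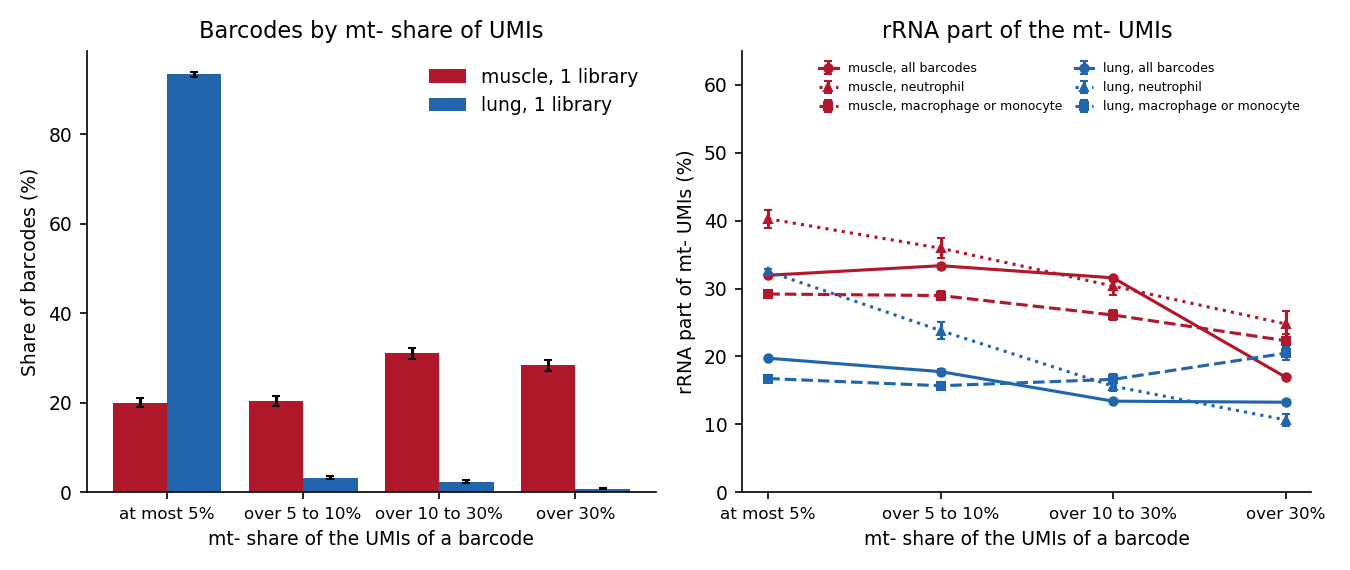
Left, share of barcodes (%) in each range of mitochondrial share, muscle red and lung blue, with exact 95% intervals. Right, rRNA part of the mitochondrial UMIs (%) by range for all barcodes and 2 gated classes, with the same intervals; the muscle line over all barcodes runs near 32% and drops to 17.0% over 30%.

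Depth and range moved together in muscle. The median barcode held 4229 UMIs at most at 5%, 2279 over 5 to 10%, 1013 over 10 to 30% and 1490 over 30%, and its nuclear UMIs fell in the same order, 4064, 2114, 840 and 266. The median mitochondrial UMIs stayed at 149, 155 and 173 in the first 3 ranges and stood at 1275 over 30%. Of the 1576 muscle barcodes over 30%, 1166 were not gated, and those had a median of 171 nuclear UMIs and 85.1% mitochondrial UMIs. Lung barcodes gated as epithelial ran the other way: 64 of them lay over 10 to 30% at a median of 4216 UMIs, against 1269 UMIs for the 349 at most at 5%.

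Among gated classes of at least 50 barcodes the muscle order of mitochondrial share was Schwann (12.5%, 146 barcodes), pericyte or smooth muscle (11.9%), endothelial (10.5%), satellite (7.53%, 56 barcodes), fibroblast (6.41%), neutrophil (5.76%, 82 barcodes) and macrophage or monocyte (4.06%, 287 barcodes). None of these 7 intervals overlapped with a neighbour's. In lung the order was epithelial (3.20%), B (2.11%), macrophage or monocyte (2.03%), T or NK (2.01%), endothelial (1.97%, 61 barcodes), dendritic (1.71%) and neutrophil (1.23%). Macrophage or monocyte, T or NK and endothelial were neighbours with overlapping intervals, 2.03 to 2.04%, 1.99 to 2.03% and 1.93 to 2.02%. Every one of the 7 muscle classes stood above every one of the 7 lung classes.

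Messengers made up 78.4% of the mitochondrial UMIs in muscle and 81.5% in lung, and the 2 rRNAs 21.6% and 18.5%. The 22 tRNAs summed to 254 UMIs in muscle and 202 in lung. These are parts of the counted UMIs. How well this library type captures rRNAs and tRNAs was not tested, so they need not be the parts in the cell. Of the rRNAs, mt-Rnr2, the large subunit rRNA, held 457030 UMIs in muscle and 101207 in lung, and mt-Rnr1, the small subunit rRNA, 110055 and 27842. The ratio of the former to the latter was 4.15 in muscle and 3.64 in lung. Per kb of gene mt-Rnr2 held 288894 UMIs in muscle and mt-Rnr1 115241, so the larger rRNA led on that scale too.

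The rRNA part changed with the range. In muscle it was 32.0% at most at 5%, 33.4% over 5 to 10%, 31.6% over 10 to 30% and 17.0% over 30%. The muscle endothelial gate ran the same way, from 33.5% at most at 5% to 20.8% over 30%. In lung it went from 19.7% to 17.8%, 13.4% and 13.3%. Lung neutrophil barcodes ran from 32.5% at most at 5% to 10.7% over 30%, the latter from 8 barcodes, while lung macrophage or monocyte barcodes held 16.7%, 15.7%, 16.6% and 20.5%. Neutrophil barcodes had a higher rRNA part than macrophage or monocyte barcodes in both tissues, 34.4% (33.7 to 35.2%) against 28.04% (27.7 to 28.3%) in muscle and 29.5% (29.2 to 29.8%) against 16.8% (16.6 to 16.9%) in lung. Over the first 3 muscle ranges the median depth fell from 4229 to 1013 UMIs at a rRNA part of 32.0, 33.4 and 31.6%. Over all barcodes the rRNA part depended on their weight. It was 29.9% in muscle and 30.9% in lung with barcodes weighted equally, and 20.2% and 18.2% at 1000 UMIs or more. The part of depth in these values was not tested.

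Few tRNA molecules were counted, and the levels below are those of counted UMIs. The highest over both libraries were mt-Tm, which carries methionine, at 150 UMIs, mt-Tl1 for leucine at 116, mt-Tw for tryptophan at 38 and mt-Ti for isoleucine at 24, with mt-Tt and mt-Tq tied at 20. The tissues differed in the first of them: mt-Tm led in muscle with 118 UMIs against 32 in lung, and mt-Tl1 led in lung with 67 UMIs against 49 in muscle. In muscle 4 of the 22 were at 0, which allows up to 0.213 CPM (UMIs per 1000000 of all UMIs) each, and in lung 6 were at 0, which allows up to 0.0863 CPM. The tRNAs mt-Tn, mt-Ty and mt-Tk were at 0 in both. The sequence of the most counted tRNA, 69 bases long without the CCA end that is added later, is
mt-Tm: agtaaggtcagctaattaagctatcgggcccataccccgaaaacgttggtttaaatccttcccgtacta

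By UMIs summed over all barcodes the leading messenger differed between the tissues. In muscle mt-Cytb, the cytochrome b of complex III, took 26.7% of the messenger UMIs (550985 UMIs), mt-Co1, the catalytic subunit of complex IV, 22.6% (466789 UMIs) and mt-Atp8, a small subunit of ATP synthase, 17.0%. In lung mt-Co1 took 35.9% (204492 UMIs), mt-Cytb 20.8% (118198 UMIs) and mt-Atp8 18.6%. In both libraries mt-Nd1 and mt-Nd2, core subunits of complex I, came next, at 13.4% and 9.84% in muscle and 9.005% and 6.75% in lung. These 5 messengers together made up 89.6% of the messenger UMIs in muscle and 91.1% in lung. Then came mt-Nd5 (5.45% and 3.73%) and mt-Nd4 (4.20% and 4.59%), both complex I subunits. The messenger mt-Nd6, the one complex I messenger read from the opposite strand, held 0.334% and 0.261%, and mt-Nd4l 0.315% and 0.163%.

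Scaling by gene length gave another order. With reads from the 5′ end a UMI stands for a molecule whatever the length of its gene, so division by length raises short genes by construction, and values per kb here give no order of molecule numbers. Per kb of gene mt-Atp8, which is 204 bases long, led with 1715660 UMIs in muscle and 519745 in lung. It stood 3.56 times above mt-Cytb in muscle and 3.93 times above mt-Co1 in lung, the second on that scale. These margins rest on the 204 bases of mt-Atp8 alone. With mt-Atp6, which it overlaps, it spans 842 bases, and no value per kb of that span was computed. The order of mt-Cytb and mt-Co1 per kb was as by count, 481630 and 302129 in muscle and 103320 and 132357 in lung.

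Over all muscle barcodes mt-Cytb led in 1 of the 4 ranges, over 30%. There mt-Cytb held 28.2% (28.1 to 28.2%) and mt-Co1 21.7% (21.7 to 21.8%) of messenger UMIs. In the other 3 ranges mt-Co1 led, with 27.2% against 21.5% at most at 5%, 24.9% against 22.5% over 5 to 10% and 24.3% against 23.3% over 10 to 30%. Over gated muscle barcodes mt-Co1 held 24.3% and mt-Cytb 23.9%. In lung mt-Co1 held 35.9%, 35.9%, 36.0% and 36.3% in the 4 ranges and led in each. The second place in lung passed from mt-Cytb (21.1% at most at 5%) to mt-Atp8 (23.6% against 19.4% over 10 to 30% and 22.4% against 20.3% over 30%). The mix of classes changed with the range as well. Barcodes gated as epithelial held 50521 of the 84340 mitochondrial UMIs of lung over 10 to 30%, and 63063 of 528367 at most at 5%. The part of this mix in the change of second place was not tested.

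**Figure D2:**
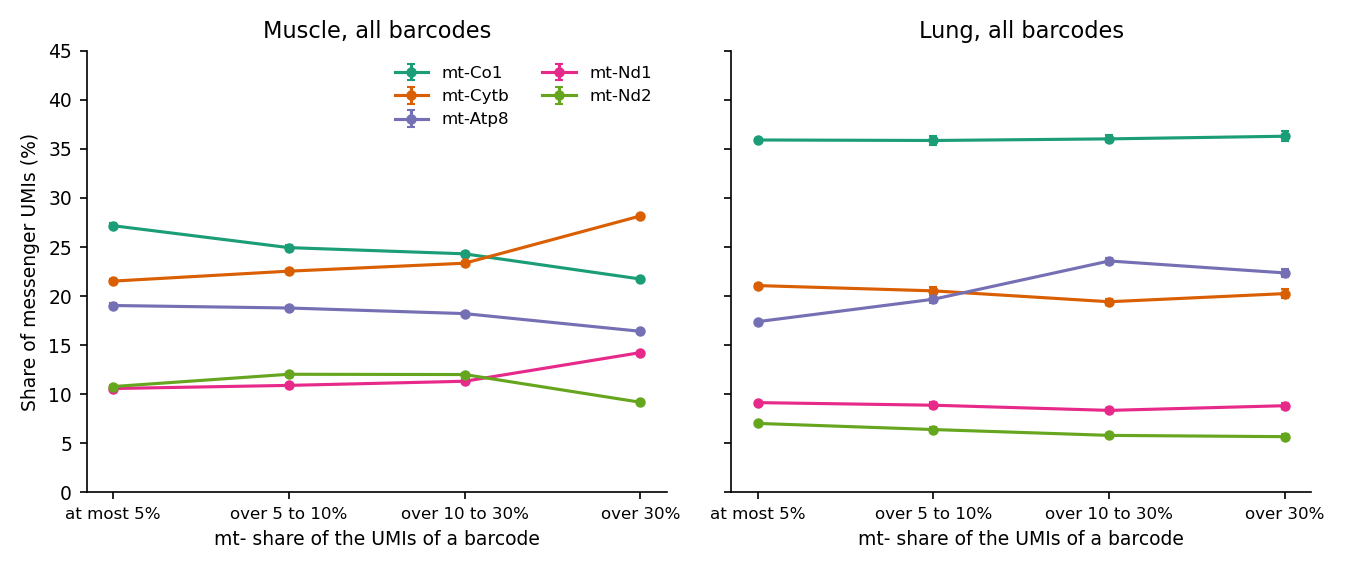
Share of messenger UMIs (%) of the 5 messengers with the most UMIs by range of mitochondrial share, left muscle and right lung, 1 library each; bars are exact 95% intervals and mostly smaller than the points. In muscle mt-Cytb passes mt-Co1 over 30%, while in lung mt-Co1 stays near 36%.

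Single barcodes showed the same shift. After each was thinned to 50 messenger UMIs, with 5384 muscle and 2738 lung barcodes deep enough, mt-Co1 led in 51.4% of the muscle barcodes at most at 5% and in 29.3% of those over 30%. For mt-Cytb these shares were 27.4% and 50.3%. Over all ranges mt-Co1 led in more barcodes than mt-Cytb in both tissues. The shares were 40.3% and 37.0% in muscle and 76.8% and 14.4% in lung.

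Within the muscle endothelial gate mt-Cytb held 24.0% (23.9 to 24.1%) and mt-Co1 23.8% (23.6 to 23.9%), and mt-Cytb rose from 21.4% at most at 5% to 26.5% over 30% while mt-Co1 went from 25.6% to 22.4%. The fibroblast, pericyte or smooth muscle and Schwann gates were also led by mt-Cytb, at 24.8% each. With at least 3 markers asked for, mt-Co1 led in the endothelial and fibroblast gates, where mt-Cytb then held 23.6% and 24.0%. Muscle neutrophil, macrophage or monocyte and satellite barcodes were led by mt-Co1 at 25.4%, 28.7% and 25.3%, against mt-Cytb at 22.2%, 21.4% and 23.3%. Muscle macrophage or monocyte barcodes passed from mt-Co1 to mt-Cytb with the range as well, from 31.3% mt-Co1 and 19.7% mt-Cytb at most at 5% to 21.0% and 27.8% over 30%, the latter range with 13 barcodes. Schwann barcodes did not: mt-Cytb was above mt-Co1 in each range, at 23.8% and 23.1% at most at 5% (16 barcodes), 24.6% and 24.3% over 5 to 10%, 24.4% and 24.3% over 10 to 30%, and 25.6% and 22.7% over 30% (20 barcodes), with overlapping intervals in all but the last. Pericyte or smooth muscle barcodes over 5 to 10% (23.8% mt-Cytb, 23.6% mt-Co1) and satellite barcodes over 10 to 30% (24.0% and 22.3%, 21 barcodes) also had mt-Cytb above mt-Co1, with overlapping intervals.

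Lung classes of at least 50 barcodes were all led by mt-Co1, from 29.3% in endothelial (61 barcodes, mt-Cytb 25.8%) through neutrophil (33.6%), B (35.0%), macrophage or monocyte (35.7%) and T or NK (36.4%) to epithelial (38.2%) and dendritic (39.6%). Epithelial was the one of these 7 with mt-Atp8 in second place, at 23.4% against 19.2% for mt-Cytb. The 24 lung fibroblast barcodes were led by mt-Cytb, at 29.5% against 24.5% for mt-Co1.

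Of 11 comparisons of muscle with lung, all 11 had a lower share of mt-Co1 in muscle, with intervals below 1. These comparisons were all barcodes, each range, and gated neutrophil, macrophage or monocyte and endothelial barcodes with the ranges of these that held at least 50 barcodes in both libraries, so they overlap. The log2 ratio was -0.67 over all barcodes, -0.41 in neutrophil, -0.31 in macrophage or monocyte and -0.30 in endothelial barcodes. The complex I messengers mt-Nd1, mt-Nd2, mt-Nd5 and mt-Nd6 were higher in muscle in 11 of 11, with intervals above 1 in 10, 11, 11 and 9. In the same order of gates mt-Nd2 stood at 0.77, 0.49 and 0.68 and mt-Nd5 at 0.54, 0.43 and 0.90 on the log2 scale.

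Other messengers turned with the subset. The share of mt-Cytb had a log2 ratio of 0.36 over all barcodes, 0.03 at most at 5%, 0.02 in neutrophil (ratio 0.969 to 1.06), 0.06 in macrophage or monocyte and -0.10 in endothelial barcodes. The share of mt-Atp8 was lower in muscle in 7 of the 11 comparisons and higher in 4, and that of mt-Nd4 likewise. For mt-Nd4l the ratio was above 1 with its interval in 9 of the 11, while in endothelial barcodes lung held 22 UMIs of it and the log2 ratio was -0.13.

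**Figure D3:**
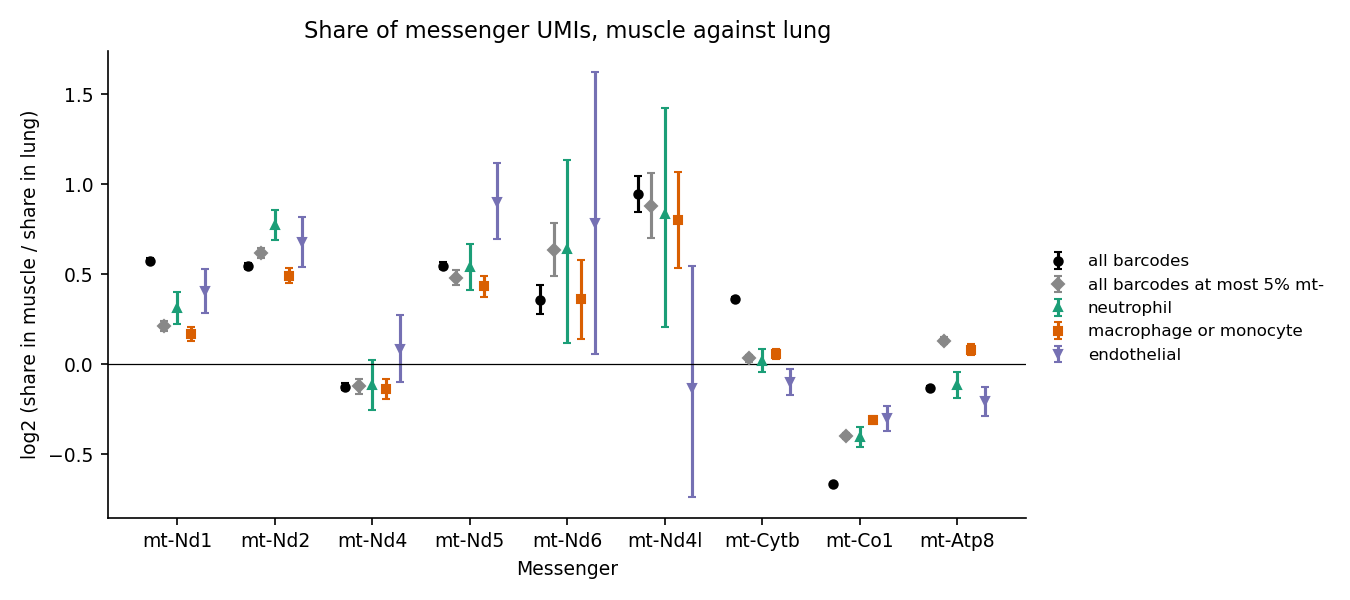
Log2 ratio of the share of messenger UMIs in muscle to that in lung for 9 messengers, over all barcodes, barcodes at most at 5% mitochondrial UMIs and 3 gated classes; bars are exact 95% intervals, counting error only. All points of mt-Co1 lie below 0 and all points of mt-Nd1, mt-Nd2, mt-Nd5 and mt-Nd6 above it.

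By complex, the 7 complex I messengers summed to 33.6% of messenger UMIs in muscle and 24.5% in lung, and the 3 complex IV messengers to 22.7% and 36.0%. In neutrophil barcodes complex I held 35.6% and 26.3%, in macrophage or monocyte barcodes 32.1% and 27.0% and in endothelial barcodes 33.8% and 23.6%. In barcodes at most at 5% it was 32.1% and 25.5%. The ratio of muscle to lung ran from 1.14 to 1.63 for complex I and from 0.599 to 0.895 for complex IV over the 11 comparisons. The complex IV sums are almost only mt-Co1, since mt-Co2 and mt-Co3 held few UMIs.

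Levels within a class were compared in CPM of all UMIs in the class. Summed mitochondrial levels were 57648 CPM in muscle and 12264 in lung neutrophil barcodes, 4.70 times higher in muscle (4.62 to 4.78). Macrophage or monocyte barcodes held 40607 and 20348 CPM, a ratio of 2.00 (1.98 to 2.01), and endothelial barcodes 104954 and 19719 CPM, a ratio of 5.32 (5.20 to 5.44). With barcodes of at most 10% mitochondrial UMIs, a limit on the level itself, the ratios were 3.67, 1.65 and 2.58. A gene was tested if both sides together held at least 30 UMIs and at least 5 were due on each side, a filter chosen after the data were seen, and it was called if the ratio was at least 2, its interval left out 1 and the higher side held at least 30 UMIs.

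In neutrophil barcodes 10 of the 10 tested members were called higher in muscle, where 2.96% of all tested genes were called higher. Their median ratio was 5.01, against 0.689 over all genes. The highest of those tested was mt-Nd2, 4966 CPM in muscle and 664 in lung (7.47-fold), and the lowest mt-Co1, 9590 and 2903 CPM (3.30-fold). In endothelial barcodes 13 of 14 tested members were called higher, where 13.1% of all genes were, and the median ratio was 4.83 against 0.957. There mt-Rnr2 went from 2525 CPM in lung to 24477 in muscle (9.69-fold), mt-Nd5 from 482 to 4219 CPM (8.75-fold) and mt-Co1 from 4648 to 17637 CPM (3.79-fold). The member not called was mt-Co3, with 3 UMIs in lung, and among the called mt-Co2 and mt-Atp6 held 2 and 1 UMIs there.

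In macrophage or monocyte barcodes 6 of 14 tested members were called higher, where 4.14% of all genes were, and the median ratio was 1.88 against 0.958. They were mt-Rnr1 (3.03-fold), mt-Rnr2 (3.42-fold), mt-Nd2 (2.43-fold), mt-Nd4l (3.01-fold), mt-Nd5 (2.33-fold) and mt-Nd6 (2.21-fold). In this class mt-Co1 was 8399 CPM in muscle and 6045 in lung, a ratio of 1.39 (1.37 to 1.41), and mt-Cytb 6247 and 3479 CPM, a ratio of 1.80. No member was called lower in muscle in any of the 3 classes, where 24.6% of all tested genes were in neutrophil, 9.48% in macrophage or monocyte and 7.37% in endothelial barcodes. No tRNA held enough UMIs to be tested in them. RNA of muscle fibres was found in 79.9% of muscle and 6.28% of lung barcodes, as a UMI of a list of 14 myofibre genes, and its part in these ratios was not tested.

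The messengers mt-Co2 and mt-Co3 of complex IV, mt-Atp6 of ATP synthase and mt-Nd3 of complex I stood far under the others. They held 599, 561, 905 and 246 UMIs in muscle and 269, 212, 356 and 47 in lung, together 0.112% and 0.155% of the messenger UMIs. By count mt-Co2 held 599 UMIs in muscle against 466789 for mt-Co1, a partner in complex IV. Each of these 4 has an annotated unprocessed pseudogene on chromosome 1 that matches it over nearly its whole length: Gm28661 over 681 bases of mt-Co2, Gm28437 over 783 of mt-Co3 and Gm10925 over 678 of mt-Atp6 at 100% identity, and Gm28438 over 345 bases of mt-Nd3 at 99.7%. Less similar copies on other chromosomes were found for mt-Co1, mt-Nd2 and mt-Nd5, such as Gm13340 on chromosome 2 at 97.6% over 1545 bases of mt-Co1. No copy was found for mt-Atp8, mt-Cytb, mt-Nd1, mt-Nd6 or the rRNAs when 31-base words were compared with the annotated transcripts, and the tRNAs are too short for that search.

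The copies were counted as well. In muscle they held 46.6% of the UMIs of mt-Co2 and its copy, 39.2% for mt-Co3, 28.7% for mt-Atp6 and 83.8% for mt-Nd3, where the copy held 1277 UMIs. In lung the shares were 39.3%, 39.6%, 29.8% and 70.6%. The messengers mt-Nd4l and mt-Nd4, which overlap by 7 bases, held 6485 and 86617 UMIs in muscle. They also have chromosome 1 copies at 100% identity. Gm10222 matches mt-Nd4l over 294 of its 297 bases. Gm28439 matches mt-Nd4 over its first 876 bases only, of 1378. The authors' counting could split or drop molecules between such sequences, so the levels of these members are uncertain and a low count is no sign that the gene is little transcribed. The cause of the low counts was not tested. The start of mt-Atp6 also lies within the last 43 bases of mt-Atp8, and the library reads the start of transcripts. Whether RNA that carries both genes was counted under mt-Atp8 was not tested either.

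**Figure D4:**
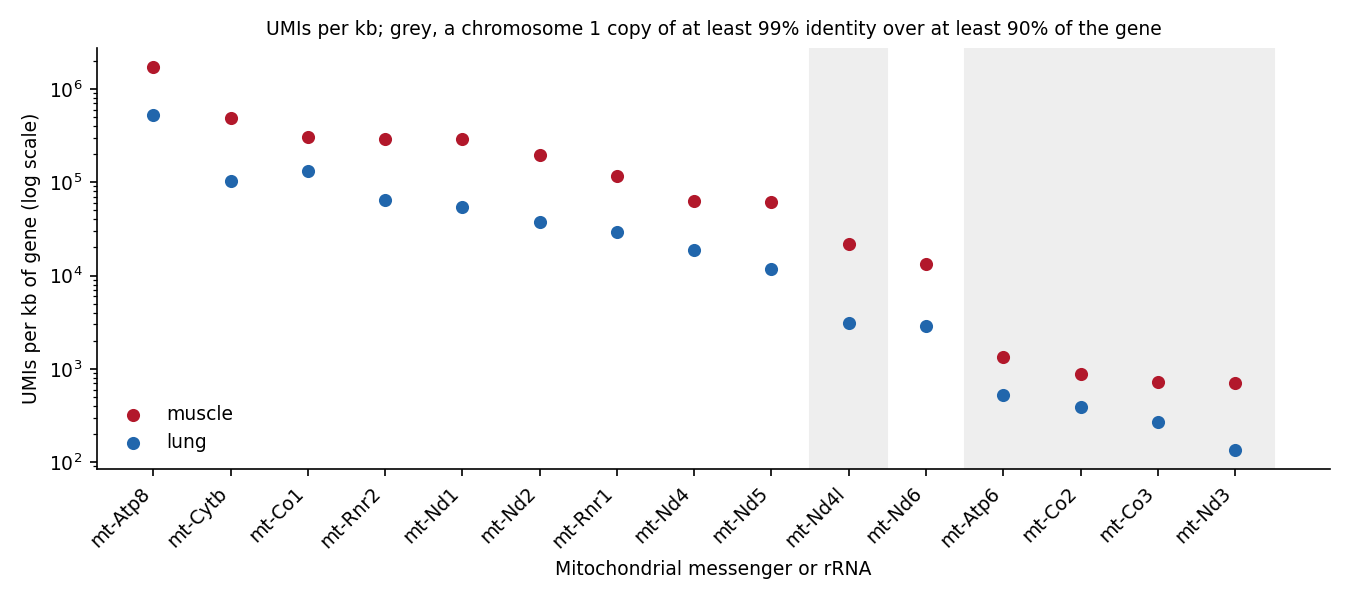
UMIs per kb of gene on a log axis for the 13 messengers and 2 rRNAs, muscle red and lung blue, 1 library each. Grey marks genes with a chromosome 1 copy of at least 99% identity over at least 90% of the gene; mt-Atp6, mt-Co2, mt-Co3 and mt-Nd3 lie lowest in both libraries.

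Together the 7 chromosome 1 copies, with Gm29216 for the end of mt-Co1 included, moved with the mitochondrial messengers. In muscle they rose from 37.4 nuclear CPM in barcodes at most at 5% to 4391 over 30%. Per 1000 mitochondrial messenger UMIs they held 1.72, 1.86, 1.76 and 1.60 from the lowest to the highest range, and in lung 1.48, 1.25, 1.30 and 1.22.

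Nuclear genes were compared between barcodes over 30% and at most 5%, in nuclear CPM. The complex I list fell from 2809 to 1437 nuclear CPM in muscle (ratio 0.512, 0.476 to 0.549), complex IV from 3829 to 1857 (0.485), ATP synthase from 4016 to 1962 (0.488), complex III from 1691 to 875 (0.518) and complex II from 330 to 154 (0.466). Of their 61 tested genes 32 were called lower and 1 higher, where 24.5% of all tested genes were called lower and 2.87% higher. By list 10 of 21 complex I, 1 of 4 complex II, 5 of 10 complex III, 8 of 12 complex IV and 8 of 14 ATP synthase genes were called lower. The lists' median ratios were 0.535, 0.527, 0.519, 0.456 and 0.468, and that of all tested genes 0.755.

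The lowest ratios among the called genes belonged to Ndufs8 (0.321) and Ndufb8 (0.372) of complex I, Sdhd (0.223) of complex II, Uqcrc2 (0.351) and Uqcrh (0.416) of complex III, Cox8a (0.336) and Cox7b (0.383) of complex IV, and Atpif1 (0.290) and Atp5d (0.347) of ATP synthase. Atpif1 encodes the inhibitor of that enzyme. The gene called higher was Cox6a2, the muscle form of a complex IV subunit, at 125 against 28.1 nuclear CPM (4.44-fold). Of 20 genes for mitochondrial transcription and RNA handling 13 could be tested, and 2 of them, Hsd17b10 (0.208) and Slirp (0.347), were called lower, a smaller share than the 24.5% of all tested genes. With Rn18s, Malat1 and the myofibre genes taken out of the totals, 18 of the 61 were called lower against 18.0% of all genes, a shift of 0.23 on the log2 scale. Within the endothelial gate 31 of 58 were called lower and 0 higher, where 19.6% of all genes were called in either direction and 16.3% lower.

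RNA of muscle fibres moved with the mitochondrial share in muscle. The list of 14 myofibre genes rose from 1590 to 12778 nuclear CPM, and 9 of the 10 tested were called higher, where 2.87% of all tested genes were. Myh4, a fast myosin heavy chain, went from 66.6 to 3435 nuclear CPM (51.5-fold) and Atp2a1, the calcium pump of fast fibres, from 29.4 to 906 (30.8-fold), while Acta1 (3.04-fold) and Mylpf (3.02-fold) were the lowest of the called. Of the 9734 myofibre UMIs at most at 5%, 7939 lay in 27 ungated barcodes. Over gated barcodes the 4 ranges held 298, 726, 1643 and 4613 nuclear CPM, and in the endothelial gate 8 of 8 tested genes were called higher, where 3.31% of all genes were. In lung the list held 20.9 nuclear CPM at most at 5% and 130 over 30%, the latter from 6 UMIs.

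A limit of at least 5% of nuclear UMIs in the myofibre list, chosen after the data were seen, picked 244 muscle barcodes and 0 lung barcodes. Of these, 234 lay over 30%, at a median of 94.6% mitochondrial UMIs and 104.5 nuclear UMIs. Their rRNA part was 13.8%, and mt-Cytb led with 28.1% against 21.1% for mt-Co1. The part of fibre RNA in the shift from mt-Co1 to mt-Cytb was not tested. Muscle barcodes over 30% also differed in Rn18s (177447 against 49882 nuclear CPM, 3.56-fold) and in Ptprc (36.2 against 198 nuclear CPM).

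In lung the 70 barcodes over 30% held 21 of 43 tested nuclear genes of the 5 complexes called lower and 0 higher, where 37.9% and 1.25% of all tested genes were, 39.1% in either direction. Complex IV went from 5909 to 2123 nuclear CPM (0.359) with Cox7a2, at 1 UMI, and Cox4i1 (0.240) lowest, and complex III from 2332 to 1170 (0.501). With Rn18s, Malat1 and the myofibre genes out of the totals 12 of 40 were called lower, against 27.3% of all genes. Rn18s rose here too, from 68787 to 283165 nuclear CPM (4.12-fold).

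**Figure D5:**
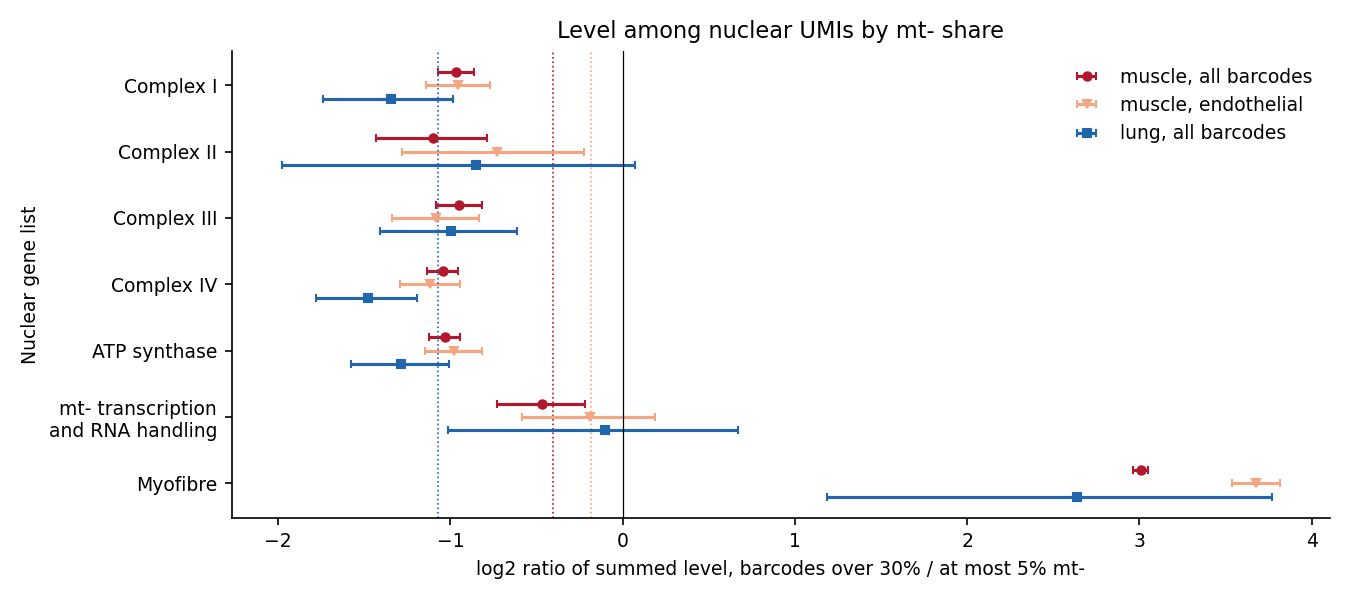
Log2 ratio of the summed level of nuclear gene lists among nuclear UMIs, barcodes over 30% against at most 5% mitochondrial UMIs, for muscle, its endothelial gate and lung; bars are exact 95% intervals and dotted lines the median ratio of all tested genes. The lists of the 5 complexes lie left of 0 and the myofibre list right of it in all 3.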

How the data were processed

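The authors made the matrices, which hold untransformed UMI counts, with Cell Ranger 7.0.1 on build GRCm39, per the submitters' processing notes. Libraries were 10x Genomics 5′ v2, per the labels' protocols. Intron counting and cell calling are not given in the sources used here, and no barcode held fewer than 500 UMIs. All barcodes were used and no doublets were removed. UMIs were summed over barcodes by tissue, range of mitochondrial share and marker gate. Shares carry Clopper-Pearson, sums Poisson and ratios conditional binomial 95% intervals (scipy 1.17.1), checked on simulated data, and edgeR 4.0.16 gave TMM factors for an alternative. A count of 0 is given with the level that 3 counts would have.

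Gene types, lengths and sequences came from GENCODE transcripts of GRCm38, another build, matched by Ensembl gene ID for 37 of 37 genes, so no coordinates are given. A copy shared at least 100 words of 31 bases with a member. The members and lists were chosen with earlier results of these data known. All 37 members are accounted for: messengers and rRNAs by name, tRNAs by counts with the 5 of highest summed UMIs (6 with the tie). Of nuclear lists, up to 4 genes per comparison were named, the 2 highest and 2 lowest ratios among those called.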

Additional observations from a re-analysis of the deposited data

How the results depend on the processing

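No paired analysis was possible because each tissue had 1 library. With no replicate to leave out, intervals do not cover differences between animals, dissociations or runs. Low counts limit what can be said of the tRNAs, the 4 messengers with near-identical copies and the 70 lung barcodes over 30%. The direction of the library-wide mt-Co1 and mt-Cytb shares between tissues and of the 3 class levels was kept under every alternative run. The leader of the muscle library was not kept. In the 11 comparisons by range and gate, mt-Cytb was lower in muscle in 4, with intervals below 1 in 3.

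The mitochondrial share in muscle was 18.0% at 1000 UMIs or more, 19.1% without barcodes over 20000 UMIs, 18.9% without mixed barcodes, 27.4% with barcodes weighted equally, 27.4% after thinning to 500 UMIs and 19.7% with totals without Rn18s. In lung it was 1.96%, 2.10%, unmoved, 2.31%, 2.31% and 2.16%. The messenger part in muscle was 79.8% at 1000 UMIs or more, 78.6% without mixed barcodes, 70.0% weighted equally and 76.7% thinned. In lung it was 81.7%, unmoved, 69.0% and 78.6%, with 80.7% without barcodes over 20000 UMIs. Weighted equally, the messenger part was thus higher in muscle than in lung, while over summed UMIs it was lower.

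The share of mt-Cytb in muscle was 27.0% at 1000 UMIs or more, 26.6% thinned, 23.9% weighted equally (led by mt-Co1) and 15.3% per kb (led by mt-Atp8). The share of mt-Co1 in lung was 35.5% without barcodes over 20000 UMIs, 35.2% weighted equally, 35.3% thinned and 14.98% per kb (led by mt-Atp8). The ratio of muscle to lung for mt-Co1 was 0.625, 0.636, 0.690 and 0.641 at 1000 UMIs or more, without barcodes over 20000 UMIs, weighted equally and thinned. For mt-Cytb it was 1.31, unmoved, 1.10 and 1.24. The ratio for mt-Atp8 turned to 1.06 weighted equally.

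Alternatives chosen after seeing the data were gated barcodes and barcodes at most at 30%. With these the messenger part in muscle was 71.1% and 67.8%, mt-Cytb held 23.9% and 22.7% (both led by mt-Co1), and the ratios were 0.676 and 0.701 for mt-Co1 and 1.15 and 1.09 for mt-Cytb. Without barcodes over 30% the lung messenger part was 81.2% and the mt-Atp8 ratio turned to 1.01. With the copies added to their members, mt-Cytb held 26.7% in muscle and mt-Co1 35.9% in lung.

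The class levels for neutrophil, macrophage or monocyte and endothelial barcodes were 4.44, 1.86 and 4.59 with at least 3 markers, 3.67, 1.65 and 2.58 at most at 10%, and 5.36, 1.91 and 6.83 with TMM factors. The nuclear genes called lower were 18 in muscle and 12 in lung with totals without Rn18s, Malat1 and myofibre genes. Thinning left 1584 muscle and 70 lung barcodes over 30%. The largest lung gate held 8 barcodes over 30%, so the nuclear comparison within it was not run.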
